A study of Homo sapiens with 9 samples.

Results

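The transition between an epithelial and a mesenchymal state was read from 10 genes in the colorectal cancer cell line LIM1215 and in the cetuximab-resistant populations derived from it. The genes were taken by symbol from the count files, 10 of the 58920 genes listed. The epithelial genes are CDH1, EPCAM, ESRP1, ESRP2 and GRHL2, and the mesenchymal genes are VIM, ZEB1, SNAI2, TWIST1 and PRRX1. RNA came from untreated cultures of the parental line (LIM1215-parental, here parental) and of LIM1215-R1 and LIM1215-R2 (here R1 and R2), with 3 libraries each. R1 and R2 had been selected separately over months with rising concentrations of cetuximab, an antibody against EGFR, while the parental cells were kept alongside without it. Each resistant line is a mixed population and not a clone. The study describes the replicates as technical, so the p-values below measure only the spread between these libraries, and effects of culture or harvest cannot be told apart from those of the line.

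Epithelial cells hold together through E-cadherin junctions, tight junctions and desmosomes, and they keep a keratin cytoskeleton. In the epithelial to mesenchymal transition, transcription factors of the ZEB, SNAI, TWIST and PRRX families repress junction genes and switch on genes of motile cells, among them vimentin and matrix proteins. GRHL2 and the splicing factors ESRP1 and ESRP2 act on the epithelial side, and microRNAs of the miR-200 family repress ZEB1 and ZEB2. Colorectal cancer cells can also hold epithelial and mesenchymal genes at the same time.

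Total counts per library lay between 13737416 and 18725014. Levels are given as CPM, the count of a gene scaled to 1000000 counts of its library after TMM adjustment, with the mean ± SD over the libraries of a line (n = 3). A level of 3 counts in 1 library, taken as the limit that a count of 0 allows, was 0.158 to 0.217 CPM, and this limit covers counting error only. Of the 10 genes, 8 had at least 10 counts over the 9 libraries and were tested with edgeR, and VIM and TWIST1 had none. A gene was called at an adjusted p of at most 0.01. In each resistant line 3 of the 8 genes tested were called against parental cells, PRRX1 as higher and EPCAM and GRHL2 as lower. Among all 19102 genes tested, 27.3% were called in R1 (14.0% higher and 13.4% lower) and 23.8% in R2 (12.3% higher and 11.6% lower). With a log2 change of 1.5 or more required as well, 1 gene was called in each line, PRRX1, beside 5.14% and 4.82% of all genes.

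PRRX1, a paired-type homeobox factor of the mesenchyme of limb and face, went from no count to a clear level in both resistant lines. It had 0 counts in each of the 3 parental libraries. R1 libraries held 213, 218 and 241 counts, or 13.1, 13.7 and 15.1 CPM. R2 libraries held 180, 193 and 157 counts, or 10.7, 12.0 and 10.3 CPM. All 6 resistant libraries lay above all parental ones, and the R1 libraries lay above those of R2. The mean level was 13.9 ± 1.03 CPM in R1 and 10.97 ± 0.881 CPM in R2. Against the level of 3 counts over the 3 parental libraries together, 0.0602 CPM, PRRX1 was at least 231-fold higher in R1 and at least 182-fold higher in R2. The adjusted p (quasi-likelihood test in edgeR, Benjamini-Hochberg) was 2.04e-17 in R1 and 1.34e-16 in R2. In these bulk libraries a larger share of cells with PRRX1 and more PRRX1 RNA per cell cannot be told apart. PRRX1 had to pass the filter through its counts in resistant cells, and it was 1 of 156 tested genes with no parental count. Of these, 42 were called as higher in both lines with a log2 change of 1.5 or more, and by mean CPM over the 6 resistant libraries PRRX1 ranked 3 among them.

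**Figure D1:**
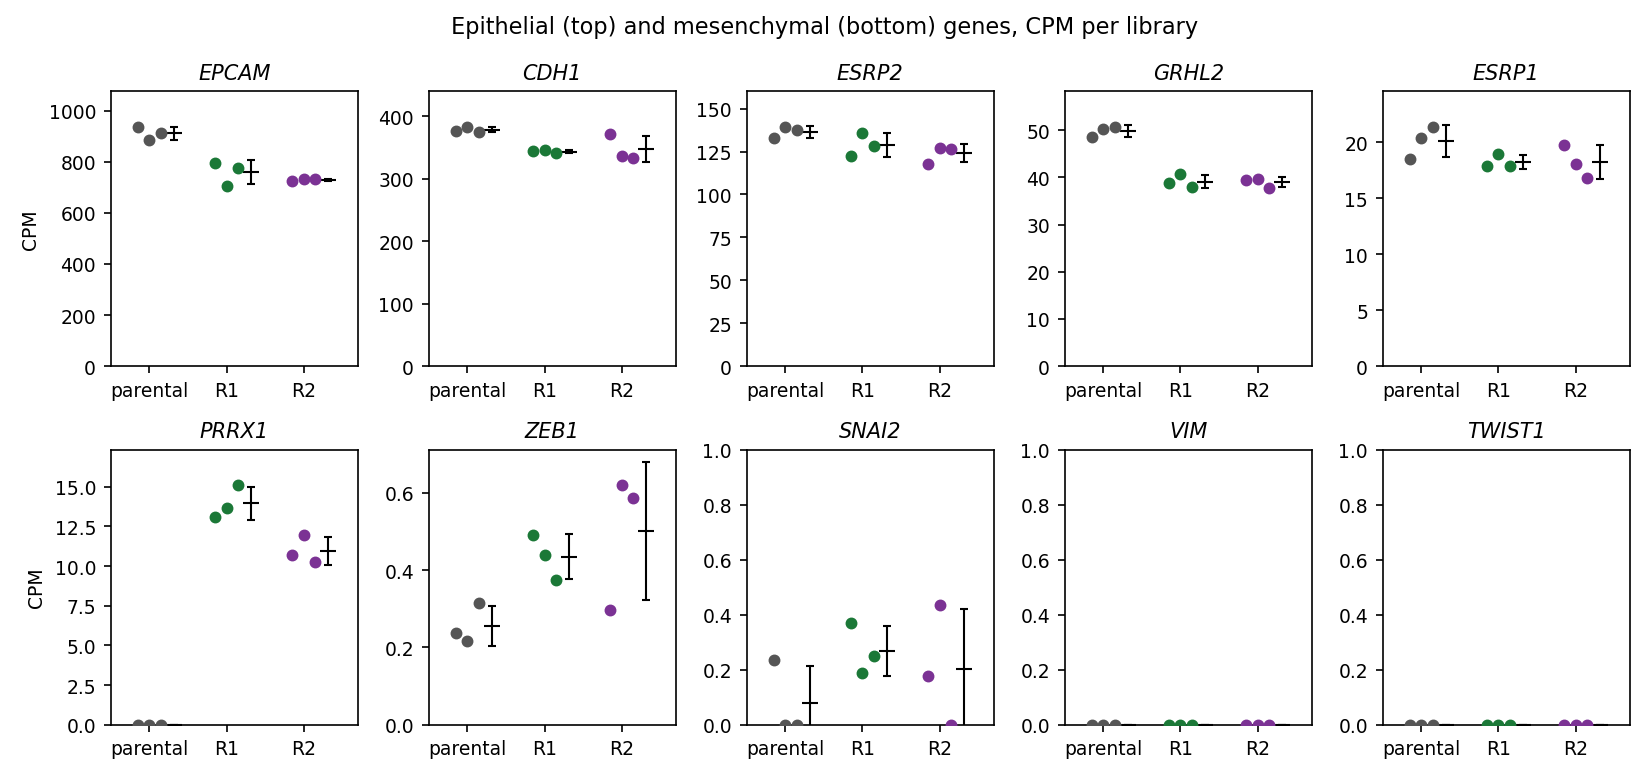
CPM of the 10 genes in each library (points) with mean and SD of each line (bars, n = 3), each panel on its own linear axis from 0, epithelial genes in the top row and mesenchymal genes in the bottom row. PRRX1 stood at 0 in all parental libraries and at 10.3 to 15.1 CPM in the resistant ones, while VIM and TWIST1 stayed at 0 and EPCAM and GRHL2 were lower in both resistant lines.

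PRRX1 lies on chromosome 1 of GRCh38.p14 in the RefSeq annotation, at chr1:170662768-170739421. The 250 bases before the outermost start of PRRX1 in GENCODE, the stretch ahead of the gene that changed most among the 10, are shown in the direction of transcription (hg38, chr1:170662478-170662727, plus strand), in lower case because no motif was found in them.
PRRX1 upstream: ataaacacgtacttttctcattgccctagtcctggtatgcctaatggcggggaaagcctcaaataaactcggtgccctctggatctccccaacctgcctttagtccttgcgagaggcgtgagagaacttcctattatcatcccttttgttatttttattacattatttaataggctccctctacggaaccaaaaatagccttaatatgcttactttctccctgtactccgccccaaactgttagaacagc
The stretch holds 44.0% G and C, below the median of 58.0% over the same length of 35116 RefSeq promoters of 27305 genes. The stretch was placed by a GENCODE start and those promoters by RefSeq starts, so the windows were not set alike. The E-box CAGGTG, the letters that ZEB and SNAI factors bind, was searched on both strands (CAGGTG or CACCTG) and had 0 matches here, and 17.5% of those promoters hold it. This says only that the letters are not in this window.

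Of the genes around PRRX1, only GORAB had enough counts for a test. GORAB, a Golgi protein gene 108933 bases before PRRX1, was at 14.9 ± 0.850 CPM in parental, 15.9 ± 1.21 in R1 and 18.0 ± 0.595 in R2 cells, and was not called (edgeR adjusted p = 0.521 and 0.0280). Its R1 libraries overlapped with the parental ones. Its R2 libraries lay above them, in a comparison where 42.8% of all genes tested did not overlap. MROH9, the next protein-coding gene after PRRX1 at a distance of 196112 bases, had 0 counts in all 9 libraries. Of the 4 long noncoding RNAs between them, 3 had no count and LOC105371610, which ends 2484 bases before PRRX1, had 1 count in a single R2 library.

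Genes near to PRRX1 over the 9 libraries, by Euclidean distance of centred log2 CPM with a prior count of 2, included SH3GL3, RORA, CXCL14 and PGBD5. SH3GL3, an endophilin gene, lay at a distance of 0.968, with 0.0984 ± 0.0236 CPM in parental cells, 19.4 ± 0.581 in R1 and 11.7 ± 0.477 in R2. RORA, CXCL14 and PGBD5 lay at distances of 1.25, 1.43 and 1.53. The orphan nuclear receptor RORA and the chemokine CXCL14 had no parental count, and PGBD5, a transposase-derived gene, had 1. The genes were picked for this likeness, so their levels are a description.

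Fibroblast markers were low in all lines. Of 9 fibroblast markers, COL1A2, PDGFRA and THY1 had 0 counts in every library. The summed level of the 9 markers was 2.46 to 3.19 CPM in parental, 1.69 to 1.75 CPM in R1 and 1.19 to 1.86 CPM in R2 libraries. Only COL1A1 and PDGFRB had enough counts for the test, and neither was called against parental cells in either line. All 9 are also in the wider mesenchymal list below. The endothelial list summed to 0.0653 to 0.722 CPM over all libraries with KDR at 0. Its PECAM1 was called as lower in both resistant lines, with 2, 10 and 3 counts in parental and 0 in resistant libraries. Most of the PECAM1 counts came from parental replicate 2. The leukocyte list, with PTPRC and CD3E at 0, summed to 7.20 to 10.3 CPM in parental, 12.0 to 14.4 CPM in R1 and 8.69 to 10.5 CPM in R2 libraries. Most of this sum was CD68, at 8.29 ± 1.69, 13.4 ± 1.48 and 9.79 ± 1.07 CPM in this order, and CD68 was called as higher in R1. The part of these genes in the results was not tested. The colon epithelium list summed to at least 11761 CPM in every library, most of it from KRT8 and KRT18, and KRT20 had no count. Among all genes tested, not matched to this list in level, 27.3% were called in R1 and 23.8% in R2. Of the list's 9 genes, KRT20 was not tested, 3 rose and 4 fell in R1, and 4 rose and 4 fell in R2. Those that fell in both lines were CDX1, CDX2, CDH17 and LGALS4, among them the intestinal factors CDX1 (log2 fold change -0.85 and -0.65) and CDX2 (-0.44 and -0.54). KRT8, KRT18 and VIL1 rose in both, and GPA33 in R2.

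The other mesenchymal genes stayed at or near the counting limit in all lines. VIM, an intermediate filament gene used as a mesenchymal marker, and TWIST1, a basic helix-loop-helix factor, had 0 counts in each of the 9 libraries. Their relatives ZEB2, TWIST2 and PRRX2, the antisense gene VIM-AS1 and CDH2, which encodes N-cadherin, also had no count in any library. ZEB1, the zinc finger repressor of E-cadherin, had 4, 3 and 6 counts in parental, 8, 7 and 6 in R1 and 5, 10 and 9 in R2 libraries. In CPM the R1 libraries lay above the parental ones, whereas R2 overlapped with them. Its mean was 0.256 ± 0.0522 CPM in parental, 0.435 ± 0.0578 in R1 and 0.502 ± 0.178 in R2. The log2 fold change was 0.73 ± 0.54 (SE, edgeR adjusted p = 0.327) in R1 and 0.92 ± 0.52 (adjusted p = 0.202) in R2, so a difference was not detectable at this depth. The 95% intervals, from -0.38 to 1.83 and from -0.16 to 1.999, leave room for sizeable changes in either line. The antisense gene ZEB1-AS1 had 38 to 60 counts per library, more than ZEB1 itself, and was not called in any comparison.

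SNAI2, the SLUG repressor, was seen in some libraries of every line. Its counts were 4, 0 and 0 in parental, 6, 3 and 4 in R1 and 3, 7 and 0 in R2 libraries, so the parental signal came from replicate 1 alone. The lines overlapped. The log2 fold change was 1.66 ± 1.00 (SE, edgeR adjusted p = 0.218) in R1 and 1.28 ± 1.04 (adjusted p = 0.398) in R2, which is not past the threshold. These values depended on single libraries and ran from 1.03 to 5.16 in R1 and from 0.19 to 4.79 in R2 when 1 library was left out, lowest without parental replicate 3 and R2 replicate 2 respectively. Both were highest without parental replicate 1, where parental had no count (adjusted p = 0.0261 and 0.0532), and neither was called. PRRX1 thus made up nearly all of the summed mesenchymal level in resistant cells. The sum of the 5 genes was 0.217 to 0.472 CPM in parental, 13.9 to 15.7 CPM in R1 and 10.8 to 13.0 CPM in R2 libraries. Without PRRX1 the remaining 4 genes had 3 to 8 counts per parental, 10 to 14 per R1 and 8 to 17 per R2 library.

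The microRNAs miR-200c and miR-141 belong to the family that represses ZEB1 and were not measured in these poly(A) libraries. Their mature forms are shown from RefSeq (GRCh38.p14, chr12:6963742-6963764 and chr12:6964155-6964176, plus strand) because their host transcript MIR200CHG was counted. Capitals mark the seed, bases 2 to 8, which differs between them.
hsa-miR-200c-3p: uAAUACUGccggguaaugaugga
hsa-miR-141-3p: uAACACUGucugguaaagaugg
MIR200CHG had 28, 26 and 22 counts in parental, 39, 32 and 45 in R1 and 28, 38 and 35 in R2 libraries. Its level was 1.56 ± 0.370, 2.41 ± 0.404 and 2.102 ± 0.380 CPM in this order, and it was not called against parental cells in either line (edgeR adjusted p = 0.0404 and 0.194).

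All 5 epithelial genes were expressed in every library of every line. Their summed level was 1478 to 1513 CPM in parental, 1247 to 1318 CPM in R1 and 1246 to 1272 CPM in R2 libraries. EPCAM and GRHL2 fell modestly in both resistant lines, and CDH1, ESRP1 and ESRP2 were not called in either. The median log2 fold change of the 5 genes was -0.14 in both R1 and R2, beside -0.0106 and -0.0037 for all genes tested.

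EPCAM encodes an adhesion molecule of the epithelial surface. Its level was 936, 885 and 911 CPM in parental, 796, 705 and 774 CPM in R1 and 723, 732 and 731 CPM in R2 libraries. All resistant libraries lay below all parental ones. EPCAM fell by 16.8% in R1 (log2 fold change -0.26 ± 0.04 SE, edgeR adjusted p = 8.48e-06). It fell by 19.97% in R2 (log2 fold change -0.32 ± 0.04, adjusted p = 4.12e-07). It lies at chr2:47369311-47387020 of GRCh38.p14.

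GRHL2, a grainyhead factor that maintains epithelial junction genes, had the largest decrease of the 5. It was at 48.4, 50.3 and 50.7 CPM in parental, 38.8, 40.7 and 37.9 CPM in R1 and 39.5, 39.6 and 37.8 CPM in R2 libraries. The resistant libraries did not overlap with the parental ones and overlapped with each other. GRHL2 fell by 21.5% in R1 (log2 fold change -0.35 ± 0.06 SE, edgeR adjusted p = 6.81e-05). It fell by 21.7% in R2 (log2 fold change -0.35 ± 0.06, adjusted p = 6.33e-05). Its relatives GRHL1 and GRHL3 went the other way. GRHL1 was at 8.03 ± 0.237 CPM in parental, 11.1 ± 0.646 in R1 and 11.4 ± 0.536 in R2 cells, and GRHL3 was at 14.9 ± 0.679, 28.3 ± 1.42 and 24.8 ± 1.18 CPM. GRHL1 rose by a log2 fold change of 0.47 and 0.51 (adjusted p = 0.00111 and 0.000552) and GRHL3 by 0.93 and 0.74 (adjusted p = 6.07e-10 and 5.83e-08). They were picked for mention after their values had been seen.

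CDH1 encodes E-cadherin, the adhesion protein whose loss is the usual sign of the transition. Its level was 377, 383 and 375 CPM in parental, 344, 346 and 341 CPM in R1 and 371, 337 and 334 CPM in R2 libraries. All resistant libraries lay below the parental ones, with R2 replicate 1 closest to them. The log2 fold change was -0.14 ± 0.04 (SE, edgeR adjusted p = 0.0129) in R1 and -0.12 ± 0.04 (adjusted p = 0.0297) in R2, which missed the threshold. Without R2 replicate 1 both differences passed it, at -0.14 (adjusted p = 0.00863) and -0.17 (adjusted p = 0.00474). Over all libraries left out singly, the log2 fold change ran from -0.145 to -0.130 in R1 and from -0.175 to -0.098 in R2. The adjusted p reached 0.0547 in R1 and 0.153 in R2. The 95% interval of the difference ran from -0.23 to -0.05 in R1 and from -0.21 to -0.03 in R2, so a larger loss of E-cadherin RNA lay outside it. CDH1 is on chromosome 16 at chr16:68737292-68835537, and ESRP2 ends 501164 bases before it.

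ESRP1 and ESRP2 encode the RNA-binding proteins that keep epithelial splice forms, such as those of FGFR2 and CD44. ESRP2 was at 133, 139 and 138 CPM in parental, 122, 136 and 128 CPM in R1 and 118, 127 and 127 CPM in R2 libraries. R1 overlapped with the parental line and R2 did not. The log2 fold change was -0.08 ± 0.05 (SE, edgeR adjusted p = 0.235) and -0.14 ± 0.05 (adjusted p = 0.0405), neither past the threshold. ESRP1 was lower throughout, at 18.5, 20.4 and 21.4 CPM in parental, 17.9, 19.0 and 17.9 CPM in R1 and 19.8, 18.1 and 16.8 CPM in R2 libraries. The lines overlapped, and the log2 fold change was -0.14 ± 0.09 in both resistant lines (adjusted p = 0.243 and 0.263). The ratio of ESRP2 to ESRP1 in CPM per kilobase of exon was 6.05 to 6.73 in parental, 6.43 to 6.74 in R1 and 5.59 to 7.09 in R2 libraries, which overlapped.

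**Figure D2:**
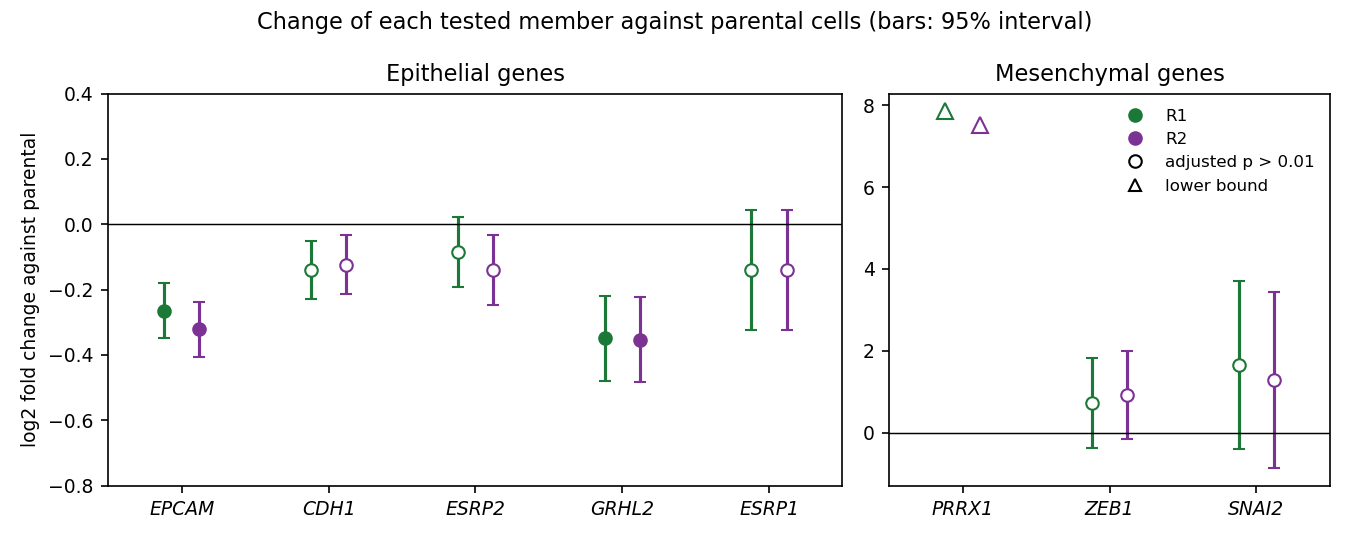
Log2 fold change of the 8 genes tested in R1 (green) and R2 (purple) against parental, with 95% intervals, on separate linear axes for epithelial and mesenchymal genes; filled points passed an adjusted p of at most 0.01, and triangles for PRRX1 are lower bounds from the limit of 3 parental counts. EPCAM and GRHL2 lay between -0.26 and -0.35 in both lines, and the intervals of ZEB1 and SNAI2 included 0.

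In the number of genes whose libraries did not overlap with the parental ones, the lines were alike, with 5 of the 8 genes tested in each. Across all genes tested this share was 44.0% in R1 and 42.8% in R2. In R1 the genes were CDH1, EPCAM, GRHL2, PRRX1 and ZEB1. In R2 ESRP2 took the place of ZEB1.

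When levels were divided by exon length (CPM per kilobase of the joined exons of GENCODE release 44), the order among the epithelial genes was the same in the 3 lines. EPCAM stood first at 375 ± 10.6 in parental, 312 ± 19.4 in R1 and 300.0 ± 1.98 in R2. CDH1 followed at 62.3 ± 0.668, 56.5 ± 0.407 and 57.1 ± 3.46, and ESRP2 at 26.3 ± 0.669, 24.8 ± 1.34 and 23.9 ± 1.01. GRHL2 and ESRP1 came next, with 8.23 ± 0.197 and 4.12 ± 0.296 CPM per kilobase in parental. No neighbours in this order overlapped in any line. In resistant cells PRRX1 stood after ESRP1, at 1.69 ± 0.125 in R1 and 1.33 ± 0.107 in R2, and above SNAI2 and ZEB1, which were under 0.1 CPM per kilobase on average in every line. SNAI2 and ZEB1 overlapped in parental and R2. VIM and TWIST1 were last at 0.

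R2 was also tested directly against R1. None of the 8 genes was called with edgeR or with DESeq2, beside 7.16% of all genes, and 1 gene, PRRX1, had an unadjusted p under 0.05. PRRX1 was lower in R2 than in R1 with no overlap, with a log2 fold change of -0.34 ± 0.11 (SE, edgeR adjusted p = 0.0429). Of all genes tested, 28.0% did not overlap between the resistant lines. The 95% interval of the difference was -0.07 to 0.11 for CDH1, -0.14 to 0.03 for EPCAM and -0.14 to 0.13 for GRHL2 on the log2 scale.

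A wider list of 42 epithelial genes, which holds junction proteins, keratins, membrane proteases and epithelial factors, changed in both directions. Of the 41 genes tested, 9 rose and 12 fell in R1, and 9 rose and 11 fell in R2, none of them with a log2 fold change of 1.5. This was 51.2% and 48.8% of those tested, beside 27.3% and 23.8% of all genes, which were not matched to the list in level. The median log2 fold change of the list was -0.07 in R1 and -0.08 in R2. Both comparisons share the parental libraries. In both lines 8 genes rose (CTNNB1, GRHL1, GRHL3, KRT8, KRT18, KRT19, MAL2 and PKP3) and 9 fell (CLDN3, DSC2, DSP, ELF3, FOXA1, KLF5, PATJ, PKP2 and PRSS8). CTNND1 shares its locus with the readthrough gene TMX2-CTNND1, so its count of 71 to 111 per library is uncertain.

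The most abundant genes of this list were KRT8, KRT18 and DSP. KRT8 and KRT18, the keratin pair of simple epithelia, rose in both lines. KRT8 was at 5717 ± 140 CPM in parental, 7883 ± 177 in R1 and 7170 ± 85.4 in R2 cells, a log2 fold change of 0.46 and 0.33 (edgeR adjusted p = 1.91e-13 and 2.47e-10). KRT18 changed by 0.41 and 0.28 (adjusted p = 5.38e-12 and 1.29e-08). DSP, the desmosomal plaque protein desmoplakin, fell by 0.24 on the log2 scale in R1 (adjusted p = 2.01e-05) and by 0.13 in R2 (adjusted p = 0.00942). The latter call was lost without parental replicate 1 or 3, R1 replicate 3 or any R2 replicate, at an adjusted p for DSP of up to 0.0883. The largest decreases common to both lines, picked after their values had been seen, were those of PRSS8 and KLF5. PRSS8, which encodes the membrane protease prostasin, was at 127 ± 3.09, 75.4 ± 3.18 and 52.6 ± 4.25 CPM, and KLF5, a Krüppel-like factor of epithelia, was at 444 ± 13.4, 269 ± 8.54 and 251 ± 6.29 CPM.

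The 22 further regulators of the transition were partly silent. FOXC2, GSC, PRRX2, TWIST2 and ZEB2 had no count in any library. Of the 16 tested, 3 rose and 6 fell in R1, and 4 rose and 5 fell in R2, with medians of -0.18 and -0.11 on the log2 scale beside -0.0106 and -0.0037 for all genes. This was 56.25% of the 16 in each line, beside 27.3% and 23.8% of all genes, again not matched in level. HMGA2, SNAI1 and TCF4 rose in both lines, and ID1, ID2, MBNL1 and SOX4 fell in both.

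TCF4, an E protein that pairs with other basic helix-loop-helix factors, was the regulator that rose most. Its level was 20.9, 16.8 and 22.3 CPM in parental, 45.1, 42.2 and 40.2 CPM in R1 and 62.4, 62.5 and 62.3 CPM in R2 libraries. The 3 lines did not overlap. The log2 fold change was 1.08 ± 0.08 (SE, edgeR adjusted p = 2.65e-11) in R1 and 1.63 ± 0.08 (adjusted p = 2.25e-15) in R2. ID2, which binds E proteins and keeps them from DNA, was at 386 ± 11.5 CPM in parental, 220 ± 8.64 in R1 and 272 ± 7.04 in R2. It fell by 0.81 on the log2 scale in R1 (adjusted p = 2.11e-14) and by 0.51 in R2 (adjusted p = 2.94e-10). TCF3, the E protein E2A, was not called, with log2 fold changes of -0.16 and -0.11 (adjusted p = 0.0111 and 0.0949). MBNL1, a splicing factor, fell by 0.30 and 0.27 on the log2 scale (adjusted p = 1.46e-05 and 8.21e-05). SNAI1, SNAI3 and SOX4 were picked after their values had been seen. SNAI1, the SNAIL repressor, was at 2.57 ± 0.233, 4.19 ± 0.393 and 4.50 ± 1.25 CPM, with log2 fold changes of 0.70 and 0.81 (adjusted p = 0.00667 and 0.00206). Its call was lost in R1 without parental replicate 1 or 3 or R1 replicate 1 or 2, and in R2 without parental replicate 1 or R2 replicate 1, at an adjusted p of up to 0.0339 and 0.0396. SNAI3 fell by 1.37 on the log2 scale in R1 (adjusted p = 1.59e-05) and was not called in R2 (-0.35, adjusted p = 0.200). SOX4, an SRY-related factor, fell by 1.02 and 1.14 on the log2 scale (adjusted p = 1.40e-14 and 1.54e-15).

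**Figure D3:**
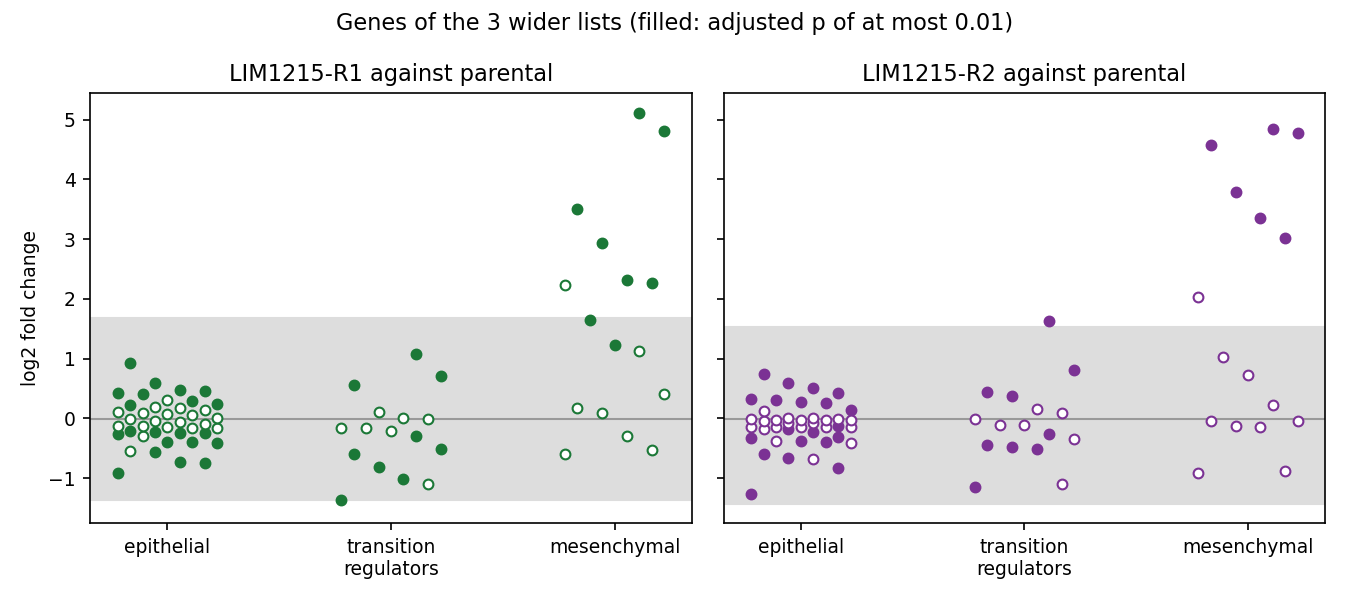
Log2 fold change against parental of each tested gene in the epithelial, regulator and mesenchymal lists (linear axis), filled where the adjusted p was at most 0.01; the grey band runs from percentile 5 to percentile 95 of all genes tested, -1.37 to 1.68 in R1 and -1.43 to 1.53 in R2, and FN1, with no parental count, is not drawn. Epithelial genes stayed within the band, whereas the mesenchymal list held called genes of up to 5.11 and 4.85. The genes of the band were not matched to the lists in level.

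The mesenchymal list of 34 genes, made of matrix, adhesion and contractile genes, held silent genes, genes not called and a few that rose strongly. In all, 8 genes had no count in any library (CDH2, COL1A2, COL6A2, LOX, PDGFRA, POSTN, THY1 and TNC) and another 9 had too few for a test. Of the 17 tested, 8 rose in R1 and 6 in R2, and none fell, beside 14.0% and 12.3% of all genes that rose. The other 9 and 11 were not called. At a log2 change of 1.5 or more, 7 and 6 genes were called, beside 3.24% and 2.63% of all genes that rose by as much. The median log2 fold change of the genes tested was 1.64 in R1 and 1.02 in R2, or 1.46 and 0.73 with FN1 at its bound. Low genes enter the test through their counts in resistant cells, so these shares and medians are a description. Those that rose in both lines included ITGA5, NT5E, S100A4, SPARC and TGFBI.

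Genes of matrix and of adhesion to it led this list. TGFBI, a secreted matrix protein named for its induction by TGF-beta, was at 0.826, 0.939 and 0.630 CPM in parental, 28.1, 26.4 and 27.3 CPM in R1 and 23.0, 22.1 and 23.2 CPM in R2 libraries. The resistant lines lay far above the parental one, with a log2 fold change of 5.11 ± 0.14 (SE, edgeR adjusted p = 1.44e-20) and 4.85 ± 0.15 (adjusted p = 6.92e-20). ITGA5, the alpha subunit of the fibronectin receptor, was at 0.354, 0.433 and 0.315 CPM in parental, 8.89, 11.3 and 10.9 CPM in R1 and 9.04, 8.73 and 8.43 CPM in R2 libraries. Its log2 fold change was 4.81 ± 0.22 (adjusted p = 4.51e-16) and 4.57 ± 0.23 (adjusted p = 2.56e-15). FN1, the gene of fibronectin itself, had no parental count, 3, 2 and 3 counts in R1 and 0, 1 and 1 in R2 libraries. Against the limit of 3 counts over the parental libraries, its R1 level was 2.76-fold higher, with its 8 R1 counts taken as exact. The difference was not called (edgeR adjusted p = 0.0217).

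NT5E, S100A4 and SPARC rose in both lines and had higher means in R2, a difference that was called for NT5E and S100A4 and not for SPARC (edgeR adjusted p = 0.143). NT5E, the surface enzyme CD73 that makes adenosine, was at 1.87 ± 0.590 CPM in parental, 9.22 ± 1.34 in R1 and 19.7 ± 1.36 in R2, with log2 fold changes of 2.26 and 3.35 (edgeR adjusted p = 3.40e-11 and 8.74e-16). S100A4, a calcium-binding protein of motile cells, was at 1.72 ± 0.309, 3.96 ± 0.726 and 13.7 ± 0.791 CPM, with log2 fold changes of 1.22 and 3.02 (adjusted p = 1.50e-05 and 2.28e-14). SPARC, a collagen-binding matrix protein, had 1, 0 and 3 counts in parental, 11, 10 and 11 in R1 and 21, 19 and 18 in R2 libraries (adjusted p = 0.000311 and 2.64e-06).

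TAGLN and CDH11 were called in R1 and not in R2, and the resistant lines differed in both. TAGLN, an actin-binding protein of smooth muscle, was at 3.29 ± 0.408 CPM in parental, 16.2 ± 0.828 in R1 and 2.94 ± 0.168 in R2 cells. R1 libraries stood apart from the other 6, which overlapped (R2 against R1, log2 fold change -2.46 ± 0.13 SE, edgeR adjusted p = 3.37e-13). CDH11, the mesenchymal OB-cadherin, was at 1.33 ± 0.110, 4.15 ± 0.243 and 1.28 ± 0.190 CPM in this order (-1.69 ± 0.21, adjusted p = 1.94e-06). CD44, the hyaluronan receptor and the most abundant gene of the list, was at 671 ± 11.5, 711 ± 18.3 and 652 ± 18.3 CPM and was not called in any comparison.

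**Figure D4:**
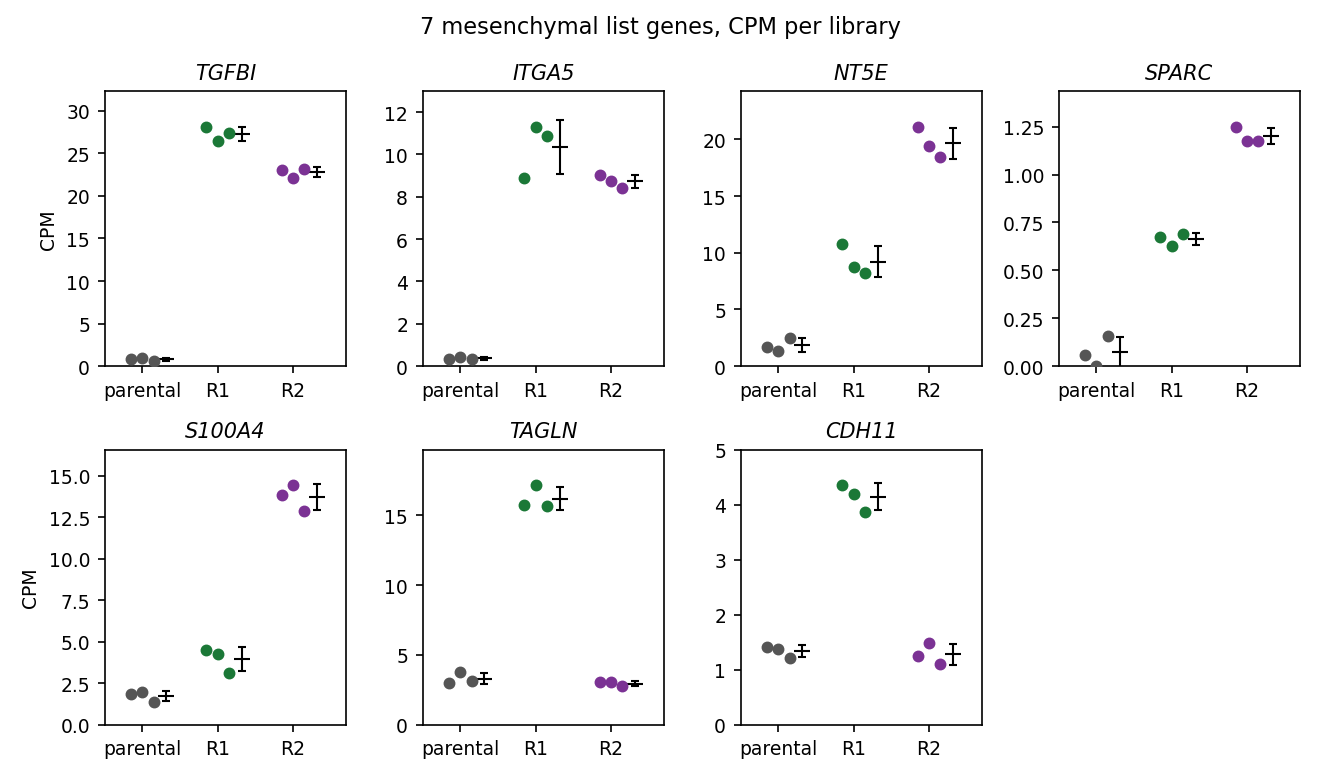
CPM of 7 mesenchymal list genes in each library (points) with mean and SD of each line (bars, n = 3), each panel on its own linear axis from 0. TGFBI rose from under 1 CPM to 22.1 to 28.1 CPM in resistant libraries, NT5E and S100A4 were highest in R2, and TAGLN and CDH11 were high in R1 only.

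Between the resistant lines, 7 of the 41 epithelial list genes tested were called, 1 higher and 6 lower in R2, 5 of the 16 regulators, all higher, and 5 of the 17 mesenchymal list genes, 3 higher and 2 lower. The epithelial count rested on single libraries and was 11 without R1 replicate 1, 4 without R1 replicate 3 and 3 without R2 replicate 1, and the regulator count was 3 without R1 replicate 3, R2 replicate 1 or R2 replicate 2. The share of all genes called as higher was 3.39% and as lower 3.77%. KRT8, KRT18 and KRT19 lay between the parental and the R1 level in R2 cells, and TCF4 was above its R1 level in R2 cells.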

How the data were processed

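Libraries were made from poly(A) RNA with the Illumina Stranded mRNA Prep and sequenced paired-end. The authors mapped reads to hg38 with STAR, counted sense reads per gene with htseq-count (0.9.1 per the submitters' notes) and deposited raw counts of 58920 symbols per library, with no normalization. The gene annotation is not given in the sources used here. Counts were analysed with R 4.3.3 and edgeR 4.0.16 (TMM scaling, quasi-likelihood model of the 9 libraries with the lines as groups, Benjamini-Hochberg over the 19102 genes with at least 10 counts in all), first tested on simulated data. Alternatives were DESeq2 1.42.0, other scalings, filters, thresholds and libraries, and, added after seeing the data, removal of trends on GC content and length (known for 86.3% of genes). The members and lists were chosen with earlier results of these data known. Named list genes were those called at a log2 change of 1.5 or more (at most 8 per list) and the 3 of highest mean CPM. Some genes under these rules are not reported here by name, though counts and medians include them. Positions came from RefSeq, and 56965 symbols matched. RefSeq promoters matched for 3 of the 10 genes, PRRX1, VIM and ZEB1. Replicates of a line differed by more than counting noise (chi-square 1.82 to 6.04 per degree of freedom), and none was merged.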

Additional observations from a re-analysis of the deposited data

Results flagged for a closer look

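Of the wider-list genes whose change against parental cells differed between the resistant lines, 10 are given here, each named by rule or picked. They were tested by R2 against R1 (edgeR, log2 fold change). Those lower in R2 were TAGLN (-2.46, adjusted p = 3.37e-13), CDH11 (-1.69, adjusted p = 1.94e-06), PRSS8 (-0.52, adjusted p = 7.85e-07), KRT8 (-0.14, adjusted p = 0.00115) and KRT18 (-0.14, adjusted p = 0.00197). Those higher in R2 were S100A4 (1.79, adjusted p = 5.42e-10), NT5E (1.09, adjusted p = 2.43e-07), SNAI3 (1.02, adjusted p = 0.00325), TCF4 (0.55, adjusted p = 4.77e-06) and ID2 (0.30, adjusted p = 1.94e-05). None of the 10 epithelial and mesenchymal genes described first was among them. SNAI3 and PRSS8 were picked after their values had been seen. Some of these calls were lost when 1 library was left out. SNAI3 lost its call without R1 replicate 2 or 3 or R2 replicate 1 or 2 (adjusted p up to 0.0236). KRT18 lost it without R1 replicate 3 (adjusted p = 0.0107) or R2 replicate 1 (0.0303), and KRT8 without R2 replicate 1 (0.0142).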

How the results depend on the processing

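PRRX1, EPCAM and GRHL2 kept their direction and their call against parental cells in every alternative that tested them. The members called in R1 became 5 once the GC and length trends were taken out, with CDH1 and ESRP2 added, and those in R2 became 5 at an adjusted p of at most 0.05, where 1 gene, PRRX1, was also called between the resistant lines. With at least 10 counts required in every library, PRRX1 was not tested, 0 members passed the fold threshold of 1.5 (log2) in either line, and the mesenchymal list held 5 and 3 called genes, since genes silent in parental cells left the test. Between the resistant lines the epithelial list held 12 called genes at an adjusted p of at most 0.05, 3 to 11 when 1 library was left out (11 without R1 replicate 1, 4 without R1 replicate 3, 3 without R2 replicate 1), and the regulator list 3 to 5 (3 without R1 replicate 3, R2 replicate 1 or R2 replicate 2). Between the resistant lines the log2 differences of CDH1, ESRP1, ESRP2, GRHL2 and SNAI2 turned sign in some alternatives, none of them called in any setting. Over the left-out libraries CDH1 ran from -0.0357 (without R2 replicate 1) to 0.0418, ESRP1 from -0.0636 to 0.0543, GRHL2 from -0.0268 to 0.0249 and SNAI2 from -1.46 to 0.17 (without R2 replicate 3). ESRP1 was also at -0.00398 with DESeq2 size factors, -0.00285 without a filter, -0.00851 with at least 10 counts per library, -0.00445 with DESeq2, -0.00346 with the 6 libraries compared and -0.0700 with the trends removed. GRHL2 was at 0.0142 with total counts only and 0.0222 with the trends removed, and ESRP2 at 0.00617 with the trends removed. With total counts only, CDH1 was called in R1 (-0.17, adjusted p = 0.00194). The cause was not tested.

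The replicate numbers do not show that libraries are paired. The correlation of deviations between same-numbered libraries ran from -0.15 to 0.45, above 0.1 in 4 of 9 pairs, and 2 libraries correlated best with their own number. With the replicate number as a block, 4 members were called in each line against parental cells, with CDH1 added (log2 fold change -0.14, adjusted p = 0.00306, and -0.13, adjusted p = 0.00914), and 12 epithelial list genes between the resistant lines.

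Among the named list genes, calls that did not hold in each alternative were those of DSP in R2, SNAI1 in both lines, and SNAI3, KRT8 and KRT18 between the resistant lines. The call of DSP in R2 was lost with DESeq2 (adjusted p = 0.0173) and without 6 single libraries. Those of KRT8 and KRT18 were also lost with the trends removed. Depth limits ZEB1 and SNAI2, whose counts did not exceed 10 in any library.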
